A study of Homo sapiens and Mus musculus with 16 samples.

Results

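A set of 979 accessible DNA regions was examined that were strong in control HPAF-II cells, lay away from every start site of transcription, and had no counterpart after loss of HNF4G. HPAF-II is an established human pancreatic adenocarcinoma cell line of epithelial type. The regions were selected on the data themselves: each had a score at or above the median of the control list, no base in common with any region in the list of the HNF4G-KO cells, and a distance of more than 1 kb from every transcript start site in GENCODE. The absence of these regions from the knockout list is therefore how they were chosen and is not a result. They make up 979 of the 118107 control regions, and of 364071 regions in the 4 lists of the series.

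The series holds 16 ATAC-seq samples, an assay in which a transposase cuts open chromatin and the cut sites are sequenced. HPAF-II control (Cas9) cells carried Cas9, and HPAF-II HNF4G-KO cells were a pool of CRISPR knockout clones of the same line. The labels give MEM with fetal bovine serum and sodium pyruvate as the medium of both, and the methods of the study give DMEM with serum. The other samples came from mouse KPC tumour cells and from liver mets of the same model. The labels list 4 replicates for each of the 4 groups, but each group has 1 region list. No replicate error can be given, and no test between the groups was possible. Read depth was unknown. Intervals below are 95% Wilson intervals over regions, which cover counting error only. In such bulk lists, a region open in fewer cells and a region less open in each cell cannot be told apart. The knockout list was the shorter one, with 97047 regions and a median score of 166, and the part of library depth in the missing regions was not tested. Start sites of all 7 epithelial markers, EPCAM, CDH1, KRT8, KRT18, KRT19, CLDN4 and ELF3, were accessible in both lists. None of the 3 endothelial markers was accessible in either list. PDGFRA and COL1A2 were accessible as 2 of 3 fibroblast markers, again in both lists.

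HNF4G is a nuclear receptor of the HNF4 family, which also holds HNF4A. These proteins bind DNA as dimers, and they prefer a form of the direct repeat that other nuclear receptors bind poorly. They are known for keeping genes of liver, gut and pancreas epithelium active. Regions far from start sites are often enhancers, where several factors bind together and act on a gene at a distance. AP-1, a dimer of JUN and FOS proteins that binds TGACTCA, is among the most common factors at such regions in cancer cells.

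Of the 979 regions, 34 held the exact HNF4 consensus CAAAGTCCA, or TGGACTTTG where it was read on the other strand. Windows that reach 100 bases to either side of the consensus middle are printed for the 8 of these with the highest control scores. They show a sequence feature in which the missing regions differed from the shared ones. Each line has the nearest protein-coding gene and the hg38 position, reads 5′ to 3′ on the plus strand, and has the consensus in capitals.
PCDH9, chr13:67283728-67283928: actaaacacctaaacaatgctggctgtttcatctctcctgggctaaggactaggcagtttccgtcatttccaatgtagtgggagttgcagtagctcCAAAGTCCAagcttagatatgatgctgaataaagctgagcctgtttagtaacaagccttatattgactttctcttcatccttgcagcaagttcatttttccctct
CADM1, chr11:115656775-115656975: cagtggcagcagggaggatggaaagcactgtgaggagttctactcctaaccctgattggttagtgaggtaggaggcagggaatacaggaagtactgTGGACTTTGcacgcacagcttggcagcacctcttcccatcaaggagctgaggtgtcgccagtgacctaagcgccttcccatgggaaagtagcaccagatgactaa
SLITRK1, chr13:84651907-84652107: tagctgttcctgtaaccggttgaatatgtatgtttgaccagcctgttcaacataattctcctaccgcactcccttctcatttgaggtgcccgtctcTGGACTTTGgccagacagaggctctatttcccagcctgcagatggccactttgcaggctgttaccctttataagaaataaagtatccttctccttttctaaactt
SH3BGRL2, chr6:79604730-79604930: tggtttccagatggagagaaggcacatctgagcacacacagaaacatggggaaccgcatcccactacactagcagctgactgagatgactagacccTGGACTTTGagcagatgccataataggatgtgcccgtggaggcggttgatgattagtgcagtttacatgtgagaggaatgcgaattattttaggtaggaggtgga
MEF2C, chr5:88627380-88627580: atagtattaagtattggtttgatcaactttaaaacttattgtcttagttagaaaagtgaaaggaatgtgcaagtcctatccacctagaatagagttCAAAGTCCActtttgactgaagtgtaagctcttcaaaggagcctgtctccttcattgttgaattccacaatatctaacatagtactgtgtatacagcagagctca
TOX3, chr16:52537458-52537658: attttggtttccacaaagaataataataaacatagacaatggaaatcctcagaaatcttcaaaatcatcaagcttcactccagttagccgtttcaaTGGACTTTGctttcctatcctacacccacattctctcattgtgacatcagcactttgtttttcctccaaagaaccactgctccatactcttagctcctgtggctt
LNPEP, chr5:97000617-97000817: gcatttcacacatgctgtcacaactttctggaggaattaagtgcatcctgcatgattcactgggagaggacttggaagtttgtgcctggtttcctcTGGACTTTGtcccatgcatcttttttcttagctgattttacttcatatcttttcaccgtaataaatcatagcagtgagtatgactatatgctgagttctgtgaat
PCDH9, chr13:67340254-67340454: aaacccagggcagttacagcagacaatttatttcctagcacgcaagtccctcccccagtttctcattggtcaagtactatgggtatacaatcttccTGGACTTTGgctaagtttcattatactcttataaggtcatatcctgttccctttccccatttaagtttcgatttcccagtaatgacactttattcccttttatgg

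The 8 sites lay on 5 chromosomes. In the region of LNPEP, an aminopeptidase gene, the consensus was 40 bp from the center of a 440-bp region in an intron. In CADM1, a cell adhesion gene, it was 23 bp from the center. In SLITRK1 it was 289 bp from the center, the farthest of the 8. PCDH9, a protocadherin gene, was nearest to 2 of them.

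The center base and 100 bases to either side are printed next for 2 of the regions with the highest scores, with AP-1 sites in capitals. They are ranks 1 and 5 by score.
PCDH18, chr4:136320177-136320377: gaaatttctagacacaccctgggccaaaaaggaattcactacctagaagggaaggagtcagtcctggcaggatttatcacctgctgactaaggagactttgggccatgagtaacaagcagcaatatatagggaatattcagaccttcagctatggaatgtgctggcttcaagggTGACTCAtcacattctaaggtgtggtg
SEMA6D, chr15:47444002-47444202: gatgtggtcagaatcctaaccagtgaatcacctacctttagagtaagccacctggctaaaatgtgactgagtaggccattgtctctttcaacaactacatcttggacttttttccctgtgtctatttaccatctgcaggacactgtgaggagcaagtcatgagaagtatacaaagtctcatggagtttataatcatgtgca

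An AP-1 site was present in the PCDH18 window and not in the SEMA6D window, and neither held the exact HNF4 consensus. To see whether such sequence is unique in the genome, the 31 bases at the center of each region and those 75 bp to either side were counted in hg38. All 3 stretches of the PCDH18 and SEMA6D regions occurred once, while those of rank 2 and 4, near ADAM29 and SPHKAP, did not. Over the whole set the intervals for such repeated sequence overlapped. At least 2 of 3 stretches were repeated in 58 of the 979 missing regions, 5.92% (4.61 to 7.58), against 5.32% (5.10 to 5.54) of strong distal regions that the knockout list shared.

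The absence of a control region from the knockout list was common among weak regions and rare among strong ones. Of all control regions, 25% were absent from the HNF4G-KO list, and of those more than 1 kb from a start site 28.4% were absent. Of the 40324 strong distal regions, 979 were absent, 2.43%. The other 39345 are called shared below. The missing share was 10.9% at scores below 200, where 317 of 2920 regions were absent. It was 6.54% at 200 to 241, 2.2% at 242 to 299, 0.925% at 300 to 399 and 0.170% at 400 or more, where 28 of 16488 were absent. The missing regions therefore sat near the bottom of the strong range, with a median score of 212 (quartiles 193 and 241, highest 787), while the shared regions had a median of 354. For comparisons at a like score, the 8576 shared regions with a score of at most 241 were used beside all shared regions. In that range 735 of 9311 regions were absent, 7.89%. The missing regions were also narrower, with a median width of 355 bp against 632 bp in all shared regions and 468 bp in those of like score. At the edge of the rule stood 100 missing regions exactly at the minimum score, and 18 distal control-only regions had a score of 183.

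**Figure D1:**
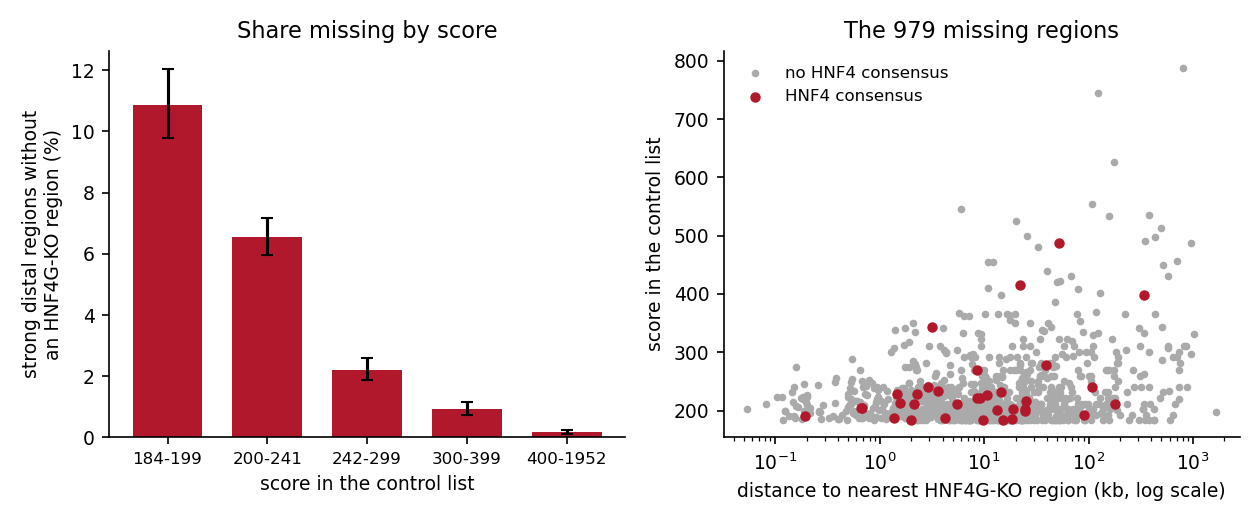
The left panel plots the percentage of strong distal control regions with no HNF4G-KO region against their control score, with 95% Wilson intervals, and falls from 10.9% to 0.170%. The right panel plots the control score of each of the 979 missing regions against the distance to the nearest HNF4G-KO region in kb on a log scale, with the 34 regions that hold the HNF4 consensus in red.

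The nearest HNF4G-KO region lay at a median of 9833 bp from a missing region, with quartiles of 3042 and 32845 bp. For 48 regions, 4.90%, it lay within 500 bp. For 116 regions, 11.8%, the nearest knockout region was more than 100 kb away. No strong distal region overlapped the knockout list by 10 bp or fewer, and 2 did so by 50 bp or fewer. The count did turn on how much overlap was asked for: with at least 50% of a region covered, 2483 strong distal regions rather than 979 would be called missing.

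The exact HNF4 consensus was present in 3.47% (2.50 to 4.81) of the missing regions. It was present in 2.06% (1.92 to 2.2) of all shared regions, 1.28% (1.07 to 1.54) of those of like score and 1.60% (1.53 to 1.67) of all control regions. Both strands were searched. In the 200 bp around the center, a window of equal size in every region, it was present in 24 missing regions, 2.45% (1.65 to 3.62). The regions themselves still differed in width, and the part of width in this share was not tested. The same window held it in 0.780% (0.698 to 0.872) of all shared regions and 0.525% (0.392 to 0.701) of those of like score. These intervals did not overlap. With the missing regions held to scores of at most 241 as well, it was central in 20 of 735, 2.72% (1.77 to 4.17). Above 241 the intervals overlapped, with 4 of 244 missing regions, 1.64% (0.639 to 4.14), and 0.852% (0.755 to 0.960) of shared ones. The consensus written backwards, which has the same base composition, was present in 0.204% of missing, 0.216% of shared and 0.140% of like-score regions. CAAAGGTCA is the direct repeat form that other nuclear receptors also bind. It was present centrally in 1.43% (0.854 to 2.39) of missing regions of all scores and 0.630% (0.483 to 0.821) of shared ones of like score. Among strong distal regions with a score of at most 241, 9 of the 63 with this form in the center were absent, 14.3%. Of those without it 7.85% were absent, and the intervals overlapped.

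Of the 331 strong distal regions with a central consensus, 24 were absent from the knockout list, 7.25% (4.92 to 10.6), against 2.39% of those without it. Among the 65 strong distal regions with a score of at most 241 and a central consensus, 20 were absent from the knockout list, 30.8% (20.9 to 42.8). Among the 9246 such regions without it, 7.73% (7.21 to 8.30) were absent. The other 45 of the 65 were shared, and all but 24 of the missing regions had no exact central consensus. With 1 mismatch allowed, 12.9% (10.6 to 15.6) of regions with a central match were absent in the same score range, against 7.49% (6.95 to 8.06) of those without.

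The same central windows were also counted for words of 8 bases. All words of 8 bases that were in the central 200 bp of at least 30 missing regions were compared with the shared regions of like score, 152 words in all, both strands counted as 1. The 2 with the highest ratio were AAAGTCCA, in 39 missing regions, 3.98% against 1.2%, and CAAAGTCC, in 40, 4.09% against 1.24%. Both are part of the consensus already counted in these windows, so they are not separate evidence. The next was CATGGCCA, in 30 regions, 3.06% against 1.27%. Only words frequent in the missing regions were compared, and these were picked for their ratio, so the ratios are a description.

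Within the missing regions, AP-1 was the most frequent of the sequences that were searched. It was present in the central 200 bp of 304 missing regions, 31.1% (28.2 to 34.0), against 25.6% (25.2 to 26) of shared regions and 21.9% (21 to 22.8) of those of like score. Held to scores of at most 241, missing regions had it in 30.7% (27.5 to 34.2). Over whole regions, which were wider in the shared set, the order against all shared regions turned, 39.3% to 44.9%, while against those of like score, 34.3%, it stayed. CTCF, which marks insulators and loop anchors, had its motif in the center of 22 missing regions, 2.25% (1.49 to 3.38), fewer than the 5.57% (5.11 to 6.08) of those of like score. Motifs of FOXA, a pioneer factor of gut and liver (TGTTTAC), differed little. They were central in 4.70% (3.54 to 6.21) of missing and 5.08% (4.64 to 5.57) of like-score regions. Over whole regions FOXA was in 8.99% (7.35 to 10.9) of missing, 13.5% of shared and 10.4% (9.73 to 11) of like-score regions. The sites of RUNX (TGTGGTTT), TEAD (ACATTCCA) and of the factors of the GATA family (as AGATAAG) were central in 2.86%, 2.86% and 3.47% of missing regions and in 2.62%, 2.03% and 3.26% of those of like score, with intervals that overlapped. The E-box (CAGGTG) was central in 19.2% and 21.8%. Over whole regions it was in 33.2% (30.3 to 36.2) of missing, 51.6% of shared and 42.4% (41.4 to 43.5) of like-score regions. KLF was central in 1.02% and 1.5%, ETS in 0.204% and 0.175%, and HNF1 in 0.102% and 0.128%. SOX (CCATTGTT) was central in 0.409% and 0.700%, and CDX (TTTATGG) in 3.27% and 2.79%. The CEBP and GRHL sites were central in 0 of the 979 missing regions, and in 1 and 3 of the 8576 of like score.

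**Figure D2:**
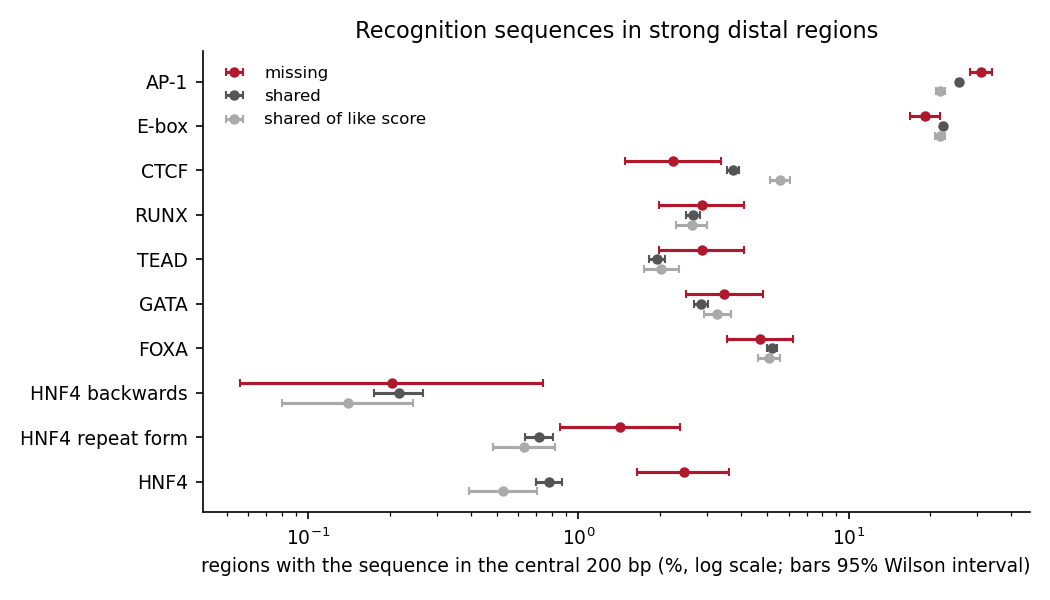
Each point is the percentage of regions with the named sequence in the 200 bp around the center, on a log scale, for missing regions (red), all shared strong distal regions (dark gray) and shared regions of like score (light gray), with 95% Wilson intervals. The intervals of HNF4, its repeat form, AP-1 and CTCF do not overlap between the missing regions of all scores and the shared regions of like score. At scores of at most 241, the absent shares of regions with and without the central repeat form had overlapping intervals.

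Matches of AP-1 also lay closer to the center in missing regions, and those of HNF4 did so against all shared regions. The consensus nearest to the center was within 50 bp of it in 16 of 34 missing regions with HNF4, 47.1% (31.5 to 63.3). This compared with 20.4% (17.8 to 23.3) of 809 shared and 23.6% (16.7 to 32.4) of 110 like-score regions. The interval of like-score regions overlapped that of missing ones. Narrower regions leave less room for distant matches, and the missing regions were the narrower ones. For AP-1 it was 233 of 385, 60.5% (55.6 to 65.3), against 34.1% and 41.2%. Few of the missing regions held both HNF4 and AP-1. AP-1 was present in 7 of the 34 regions with the HNF4 consensus, 20.6%, and in 378 of the 945 without it, 40%. The first share rests on 34 regions, and no such count is given for shared regions.

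**Figure D3:**
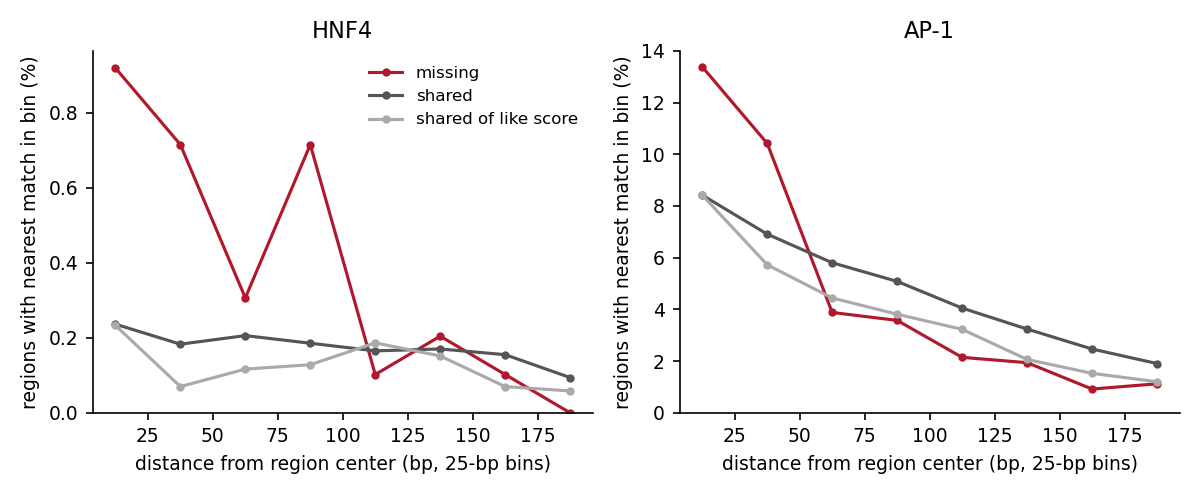
The percentage of regions whose match nearest to the center falls in each 25-bp bin of distance, for the HNF4 consensus on the left and AP-1 on the right, in missing regions (red), all shared regions (dark gray) and shared regions of like score (light gray). In the innermost bins, the line of missing regions is above both others for each sequence.

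The 34 regions with the consensus had scores of up to 488 and lay on 15 chromosomes, 20 in introns, 13 between genes and 1 in an exon. Within the introns of their own nearest gene were those of TOX3, a chromatin protein of the HMG-box group, with a score of 270, and LNPEP with 241. PINX1, a telomerase inhibitor, had 229 and UST, a sulfotransferase of glycosaminoglycans, 213. Between genes, the highest was that nearest to PCDH9 with a score of 488, then CADM1 with 415. SLITRK1, a neuronal membrane protein, had 398 at 768896 bp from its start site, and SH3BGRL2 343 at 26263 bp. Further ones were near HS3ST2, a heparan sulfate sulfotransferase, ARHGAP24, a RAC-directed GTPase activator, and FOXB1, a forkhead factor, with scores of 234, 231 and 221. The region near MEF2C, a transcription factor of muscle and neurons, had a score of 278 and lay in an intron of LINC00461. Others of the 20 highest were nearest to AVL9, MAB21L3, TTLL7, PIWIL2, OR13H1 and FAM193B, with scores of 211 to 228.

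Missing regions had a class makeup near that of shared regions. Their centers lay in introns in 59.4% (56.3 to 62.5), between genes in 37.2% and in exons in 3.37%, against 56.8%, 38.7% and 4.53% of shared regions. They lay farther from protein-coding start sites. The nearest protein-coding start site was at a median of 45181 bp, against 22525 bp in shared regions and 21814 bp in those of like score. More than 100 kb away were 35.4% (32.5 to 38.5) of missing and 17.2% (16.9 to 17.6) of shared regions, and more than 500 kb away 9.60% and 2.26%. A body of a noncoding gene alone held 19.0% (16.7 to 21.6) of missing and 14.0% (13.6 to 14.3) of shared regions. Where the center was in a protein-coding gene, that gene had a median length of 204606 bp, against 146513 bp. GC content was lower, with a median of 44.7% against 47.4% in shared and 47.2% in like-score regions.

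Chromosome 4 held 6 of the 20 missing regions with the highest scores, the first and second among them. The first, with a score of 787, was 994 bp wide and lay inside a noncoding transcript, in an intron. PCDH18, a protocadherin, was its nearest coding gene, and the nearest knockout region was 803558 bp away. The next had a score of 745, also in a noncoding intron, 196179 bp from ADAM29, an ADAM family gene of testis. The region of SPHKAP, a protein kinase A anchor, had 555. That of SEMA6D, a semaphorin of axon guidance, had 546, and it lay in an intron of SEMA6D itself, 5993 bp from a knockout region. Further ones were nearest to ADGRL3, a latrophilin receptor, with 535, GOT2, a mitochondrial transaminase, with 533, and KCTD8 with 525. EPHA6, an ephrin receptor, was nearest to 2 with scores of 513 and 497. PCDH10 had 500, N6AMT1, a methyltransferase, 490, and CDH6, a cadherin, 480. CPXCR1 had 456, TTLL7 and MAP3K7 454 each, FSTL5 450 and PRDM9, a meiotic histone methyltransferase, 440. These names give the nearest coding gene only, and its start site could be far. It was 1538140 bp away for PCDH10, 1258510 bp for GOT2, 1208780 bp for PCDH18 and 1121460 bp for MAP3K7. It was 22706 bp away for PRDM9 and 31381 bp for CDH6. A side stretch of the ADAM29 region occurred 172 times in hg38, and for SPHKAP it was 3023 times at the side and 269 times at the center, so reads may not be placed with certainty there. The stretch at the center of the MAP3K7 region occurred 1175 times, and a side stretch of the PRDM9 region 9 times. All 3 stretches of the TTLL7 and PCDH10 regions occurred 2 times each.

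Chromosome 4 held 142 missing regions of 1816 strong distal ones, 7.82% (6.67 to 9.15), and 14.5% of all missing regions against 4.25% of the shared. Chromosome 21 followed with 4.37% (2.81 to 6.72) and the X chromosome with 3.82% (2.85 to 5.11). The lowest share, chromosome Y left aside, was on chromosome 17, where 10 of 1478 were absent, 0.677%. Along chromosome 4 the share was 26% at 170 to 180 Mb, 19 of 73, and 22.2% at 160 to 170 Mb, 14 of 63, while the first 20 Mb stayed under 3%. Among the weaker distal regions of this chromosome, with scores under the control median, 61.6% (59.6 to 63.6) were absent from the knockout list, against 50% (49.6 to 50.4) over all chromosomes, with 58.9% on chromosome 21, 55.6% on chromosome 2 and 55.5% on the X chromosome. The shared strong distal regions of chromosome 4 had a median change in score percentile, knockout less control, of -13.04, against -6.95 over all chromosomes. Without chromosome 4 the missing share of the rest was 2.17%. Because the knockout cells were a pool of clones, differences of the clones and the loss of HNF4G cannot be told apart here.

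**Figure D4:**
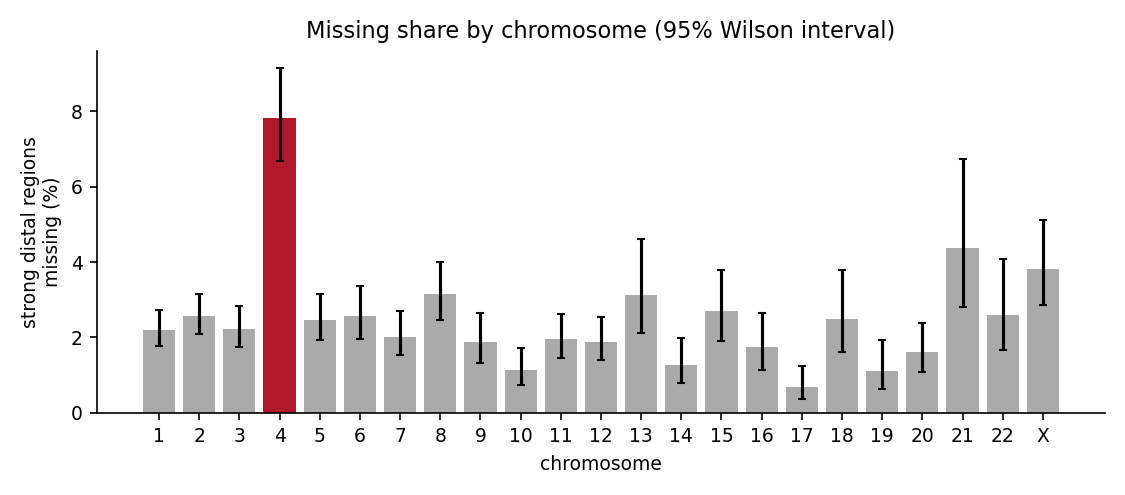
Bars give the percentage of strong distal control regions on each chromosome that have no HNF4G-KO region, with 95% Wilson intervals, chromosome Y left out. Chromosome 4, in red, reached 7.82%, and chromosome 17 had the lowest share at 0.677%.

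Another missing region lay within 100 kb of 161 missing regions, 16.4% (14.3 to 18.9), and a missing region lay as near to 7.22% (6.69 to 7.78) of shared regions of like score. With regions of any score counted, 30.8% of the other control regions within 100 kb of a missing region were control-only, 2945 of 9574, against 22.6% around shared regions. Every neighbor was control-only for 86 missing regions, 8.78%, against 0.834% of shared. Missing regions also had fewer neighbors within 100 kb, with a median of 9 against 13 for shared regions. The part of neighbor number in this gap was not tested. Control-only neighbors were read from the same lists that defined the missing regions, so these shares are a description. When the control regions were read in order along each chromosome, 447 of the missing regions had a shared region on both sides, and 160 lay in runs of 5 or more control-only regions. The consensus was present in 11 of 346 missing regions with less than 25% of neighbors control-only, in 16 of 299 with 25% to less than 50%, and in 6 of 303 with 50% or more. The last group held 76 of the missing regions of chromosome 4, and its median distance to a coding start site was 134872 bp, against 18367 bp in the first group.

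PCDH9 had the most missing regions. All 11 strong distal regions nearest to it were absent. In a stretch of 1.60 Mb on chromosome 13, 17 of 18 control regions had no knockout counterpart, with scores of 193 to 488 in the strong ones. The knockout list had 1 region there, at the PCDH9 start site and at percentile 5.19 of that list. The control list had regions at percentiles 8.12 and 14.6 at this start site. NAALADL2, a large gene of a peptidase-like protein, held 9 missing of 14 strong distal regions, all in its body. There the 5 knockout regions in the same span matched control regions. Among them was one at percentile 85.8 of the control list and 0.785 of the knockout list. Near STIM2, a calcium sensor of the endoplasmic reticulum, 5 of 14 were absent, and in the 0.104 Mb that they span all 6 control regions were absent and the knockout list had 0. AGBL1, a carboxypeptidase gene, had 5 of 11. All 5 regions nearest to FSTL5 and all 4 nearest to GRXCR1 were absent, and so were 5 of 8 near GPM6A, 5 of 11 near FAM110B, 4 of 5 near CSMD3, PCDH10 and ROBO1 each, and 4 of 11 near MAP3K7. Among transcription factor genes, RUNX1 had 3 of 37, ZEB2 3 of 18 and TCF4 3 of 12. CDH11, a mesenchymal cadherin, had 3 of 6. ADAM29 and HDGFL1 had 3 of 4 each, DUSP26 3 of 6 and GOT2 3 of 7, and SYN3, TENM3 and TRIML1 had 3 of 8 each. MAOA had 3 of 9, ADGRL3 and KCNT2 3 of 10 each, GRM7 3 of 17 and LRRC4C 3 of 20. These counts go by the nearest coding start site, which was up to 1796260 bp away for PCDH10.

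**Figure D5:**
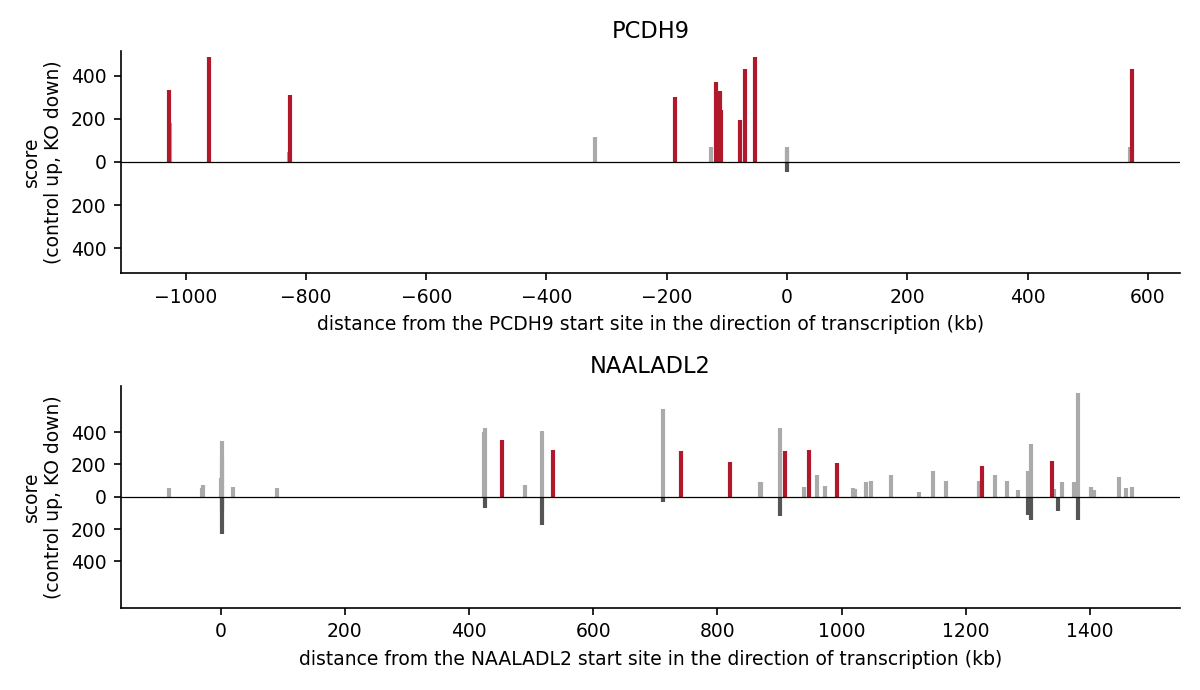
Bars give the score of each control region (up, red where missing by the rule and light gray otherwise) and each HNF4G-KO region (down, dark gray) at its distance in kb from the start site of PCDH9 (top) and NAALADL2 (bottom), in the direction of transcription. The PCDH9 panel has 1 knockout region, and NAALADL2 has knockout regions under the strongest control regions. Both lists are drawn on 1 axis, though their scores may not share a scale.

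The missing regions were nearest to 798 protein-coding genes. Of these, 590, 73.9% (70.8 to 76.9), had an accessible start site in both lists, against 76.2% of the genes nearest to shared regions. In the control list alone were 29, 3.63% (2.54 to 5.17), against 2.80%, and in the knockout list alone 4. Neither list had a region at the start sites of 175, 21.9% (19.2 to 24.9), against 20.3% (19.5 to 21) of genes nearest to shared regions and 24.5% of all protein-coding genes. PCDH18, ADAM29, SPHKAP, SEMA6D, KCTD8, PCDH10, CDH6, CPXCR1, FSTL5, CADM1 and SLITRK1 were among these. Where both had one, the highest percentile within 1 kb of any start site of the gene was taken in each list. The regions compared may therefore lie at different start sites of a gene. The median change in this percentile, knockout less control, was -1.38, against -0.52 for genes of shared regions. Single genes lay far from it on both sides. At EPHA6 the start-site region stood at percentile 0.0944 of the control list and 78.4 of the knockout list. The change was 17.2 at TOX3, -16.2 at MEF2C and -21.4 at PIWIL2, a gene of piRNA-bound proteins in germ cells.

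Few genes of known programs had a missing region within 50 kb of a start site. Among 26 genes of the classical pancreatic cancer subtype they were ANXA10, an annexin of gastric epithelium, REG4, a secreted lectin, and TSPAN8, a tetraspanin, each with 1 missing region, 3 of 94 strong distal regions or 3.19% (1.09 to 8.97). None of the 92 regions near 25 basal subtype genes was absent (0 to 4.01). Among 30 liver and gut genes known as HNF4 targets they included APOH, a plasma glycoprotein, and FABP2, the gut fatty acid binding protein, and 3 of 86 regions were absent in all, 3.49% (1.19 to 9.76). The APOH region, chr17:66287761-66288228, was the only one of these that held the consensus. Among 30 transcription factors of pancreas and foregut, HNF4G, RUNX1 and TEAD1 each had 1, and 4 of 124 regions were absent in all, 3.23% (1.26 to 8). That of HNF4G lay in an intron of the gene, at chr8:75554837-75555318, with a score of 212. Every one of these intervals took in 2.43%, the share over all strong distal regions.

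The mouse lists were looked at by gene symbol only. For 721 of the 798 genes a mouse gene of the same symbol was found, and its start site was accessible in the KPC tumour list for 62.6% (59.0 to 66.0) and in the list of liver mets for 64.8% (61.2 to 68.2). For genes of shared regions of like score it was 70.0% (68.7 to 71.3) and 71.7% (70.4 to 72.9). A region in the liver mets list alone was found for 26 genes, 3.61% (2.47 to 5.23), against 2.91% (2.47 to 3.42), and in the KPC tumour list alone for 10, 1.39% (0.755 to 2.53), against 1.29% (1.00 to 1.65).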

How the data were processed

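ATAC-seq was performed by the authors with the Omni-ATAC protocol. The submitters' processing notes name Bowtie2 2.2.6, MACS2 2.1.1.20160309 and DiffBind, with builds hg38 and mm10. The deposited files are 1 region list per group, with a whole-number score in column 5. What the score measures is not given in the sources used here. The methods of the study describe peak calling on merged replicates for ChIP-seq, and the ATAC-seq comparison is said to combine the replicates, but how these lists were called is not stated, so scores were compared only within a list or as percentiles. Depth per sample is unknown.

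The members and lists used here were chosen with earlier results of these data known. Overlap, distance to GENCODE v44 start sites (1 bp and 1 kb limits), gene class, sequence (hg38 reference) and neighbors within 100 kb were computed in Python 3.11.15 with pandas 2.3.3 and numpy 2.4.6, and checked on simulated data. Regions needed a score of at least 184. The 16 motifs searched were HNF4 (CAAAGTCCA), its direct repeat form, FOXA, GATA, HNF1, AP-1, CTCF, TEAD, ETS, KLF, RUNX, CEBP, GRHL, SOX, CDX and an E-box, with the HNF4 consensus written backwards beside them. Wilson intervals were from scipy 1.17.1. Repeated sequence was counted as 31-base stretches at the center and 75 bp to either side. The reference does not mark repeats, so a repeat-masked share was not computed.

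Named genes were those nearest to the 20 highest-scoring regions, to the 20 highest with the HNF4 consensus, to 3 or more regions, or in a gene list with a region within 50 kb. Some of these genes, sequences and markers, among them a region of the highest-scoring ones, are not reported here. No test, permutation or set test was run, because each group has 1 list.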

Additional observations from a re-analysis of the deposited data

How the results depend on the processing

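No paired analysis was possible because each group has 1 region list, with no column for a replicate. For the same reason no replicate could be left out. Of 37 alternatives, 19 left the value within 1.5 times of the count or within the interval of the share. The number of missing regions was 2483 when 50% of a region had to be covered to be shared, 224 with a score minimum of 250, 2058 with a minimum of 150, and 3071 with the lowest-scoring 25% of the knockout list left out. Without chromosome 4 it was 837 and without repeated sequence 921, alternatives chosen after seeing the data. The intron share was 41.4% when only protein-coding genes were used, below the 44.1% of shared regions, so that its order against them turned. HNF4 was 2.45% in the central 200 bp, 5.72% with either form and 22.4% with 1 mismatch, where shared regions had 22.2%. FOXA was 11.6% with a score minimum of 250 and 4.70% in the central 200 bp. AP-1 was 46.4% and 31.1% under the same 2 settings, the latter above shared regions and the whole-region value below them. GC content was 46.5% in the central 200 bp. Neighbors were control-only in 28.0% within 1 Mb and in 28.4% at scores of 50 or more. Chromosome 4 held 11.1% with a score minimum of 150. Accessible start sites were 86.7% within 5 kb, and 1 basal gene had a missing region within 200 kb. The causes of these changes were not tested. Unknown read depth limits every statement about absence: a region below the calling limit in the knockout list would be counted as missing.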
